A study of Mus musculus with 24 samples.

Results

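The 9 genes described here encode proteins of mitochondrial fatty acid oxidation and the carnitine shuttle that feeds it: Cpt1a, Cpt1c, Slc25a20, Cpt2, Acadvl, Acadl, Acadm, Hadha and Hadhb. They were chosen by name, and each was read from a probe set annotated to exactly 1 gene symbol, the probe set with the highest mean signal where a gene had more than 1. All 9 were found among 19938 genes read in this way, and all 9 were among the 11963 genes whose mean signal lay at or above the 40th percentile (5.84 log2 units) and were tested. Only Hadhb had a second probe set, whose signal correlated with that of the first at r = 0.99 over 20 arrays. Total RNA came from the mediobasal hypothalamus of mice of the background strain C57BL76J and was hybridised to 24 Affymetrix arrays. Mice under timed sleep restriction (TSR) were prevented from sleeping by gentle handling between ZT0 and ZT6 (zeitgeber time, hours after lights on), in 2 blocks of 5 days with 2 days of free sleep between them. Control mice (CON) were left undisturbed over the same days. Tissue was taken at ZT1, ZT7, ZT13 and ZT19 from 3 mice per condition and time, which gives 8 groups of 3 arrays. The sources used here give no sex, age or day of tissue collection, and the number of arrays limits the precision.

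Fatty acids enter the mitochondrial matrix as carnitine esters and are then shortened step by step, each round yielding acetyl-CoA and reduced electron carriers. Malonyl-CoA, the building block of fatty acid synthesis, blocks the carnitine palmitoyltransferase at the outer membrane, so synthesis and oxidation oppose each other. In the hypothalamus this balance is studied as one of the signals by which neurons and glia read the nutrient state of the body. Cpt1a encodes the outer-membrane transferase, Slc25a20 the translocase of the inner membrane and Cpt2 the transferase on its matrix side. Cpt1c encodes the brain form of the transferase family, which sits in the endoplasmic reticulum of neurons, binds malonyl-CoA and has little transferase activity. Acadvl, Acadl and Acadm encode the acyl-CoA dehydrogenases for very-long-chain, long-chain and medium-chain substrates. Hadha and Hadhb encode the alpha and beta subunits of the mitochondrial trifunctional protein, which carries out the remaining steps on long chains.

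Upstream sequences are shown for the genes whose levels differed most between conditions in opposite directions, Acadm and Cpt1c, and for the start region that Hadha and Hadhb share. Each is the 250 bases before the start used in RefSeq's promoter table, 5′ to 3′ on the strand of the gene, on assembly GRCm38.p6. For Cpt1c that start lies inside the listed span of the gene, so the window overlaps the span. They lie at chr3:153944644-153944893 on the minus strand for Acadm, at chr7:44974852-44975101 on the minus strand for Cpt1c and at chr5:30155003-30155252 on the plus strand for Hadhb. Capitals mark AGGTCA, the half-site of many nuclear receptors, and GGGCGG, a GC box, read on either strand (a match on the other strand appears as TGACCT or CCGCCC).
Acadm: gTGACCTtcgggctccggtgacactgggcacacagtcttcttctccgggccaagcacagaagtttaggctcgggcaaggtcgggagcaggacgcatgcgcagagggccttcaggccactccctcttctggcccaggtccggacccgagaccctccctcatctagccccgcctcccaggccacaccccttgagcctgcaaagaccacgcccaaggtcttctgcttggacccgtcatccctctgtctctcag
Cpt1c: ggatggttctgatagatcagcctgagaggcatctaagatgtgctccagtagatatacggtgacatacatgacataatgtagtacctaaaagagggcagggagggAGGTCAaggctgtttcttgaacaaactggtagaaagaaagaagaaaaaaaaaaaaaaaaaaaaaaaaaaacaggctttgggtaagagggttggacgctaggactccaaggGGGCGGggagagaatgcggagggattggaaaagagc
Hadhb: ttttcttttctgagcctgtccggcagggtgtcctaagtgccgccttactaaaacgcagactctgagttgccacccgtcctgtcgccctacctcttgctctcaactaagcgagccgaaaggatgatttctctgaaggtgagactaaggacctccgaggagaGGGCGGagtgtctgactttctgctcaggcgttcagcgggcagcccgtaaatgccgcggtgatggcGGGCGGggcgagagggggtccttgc
Hadha runs in the opposite direction from a start at position 30154980 of chromosome 5, with 272 bases between it and the start of Hadhb, so the whole Hadhb window lies between both starts. The half-site was present in the windows of 4 of the 9 genes (Acadm, Acadvl, Cpt1a and Cpt1c) and in 14% of 32851 windows of the same length. Its extended form AAGGTCA, the usual element of the estrogen-related receptors, was present in the Acadm window alone among the 9, and in 4.08% of all windows. Every match of this longer form is also a match of the half-site. The GC box was found in the windows of 7 of the 9 genes, all but Acadm and Acadvl, and in 32.7% of all windows. The E-box of the clock proteins, CACGTG, was in none of the 9 windows and in 6.02% of all. The same held for the DR1 element of the peroxisome proliferator-activated receptors, a direct repeat of the half-site with 1 base between, present in 0.0335% of all windows. These matches describe the letters in the windows and were not linked to binding.

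Before the comparisons, 4 arrays have to be set apart. Their signals had an interquartile range of 2.12 to 2.25 log2 units, against 2.96 to 3.29 in the other 20, and their rank correlation with the other arrays was 0.836 to 0.882, against 0.976 to 0.986. They are called narrow here, the limit being an interquartile range of 2.5, and the other 20 are called typical. The narrow arrays were TSR ZT1 replicate 3, TSR ZT13 replicate 2 and CON ZT19 replicates 2 and 3, so without them the CON group at ZT19 rests on 1 array. Each comparison is given over all 24 arrays and over the 20 typical ones. In the fit over 20 arrays the single CON array at ZT19 was assumed to vary as the other groups do. Fits that left out 1 further typical array numbered 19, because that single CON array was always kept. They therefore do not show how results at ZT19, of the average or of the rhythm depend on it. The median residual SD of a gene was 0.36 log2 units over 24 arrays and 0.11 over 20.

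The genes did not read alike in the narrow arrays. Acadl, Acadm, Cpt1a, Hadha, Hadhb, Cpt1c and Slc25a20 each read lower in every narrow array than in the typical arrays of the same group. The difference, narrow array minus typical arrays, was -1.93 to -1.22 log2 units for Acadl, -1.85 to -1.20 for Hadhb, -1.65 to -1.35 for Cpt1a, -1.55 to -1.26 for Acadm and -1.35 to -1.15 for Hadha. It was -1.50 to -0.82 for Cpt1c and -1.45 to -0.61 for Slc25a20. Acadvl differed by only -0.065 to -0.044, and Cpt2 by -0.11 to 0.077. The median of all tested genes in the same arrays was -0.87 to -0.72. A group that holds a narrow array therefore reads low for 7 of the 9 genes and not for Acadvl and Cpt2.

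**Figure D1:**
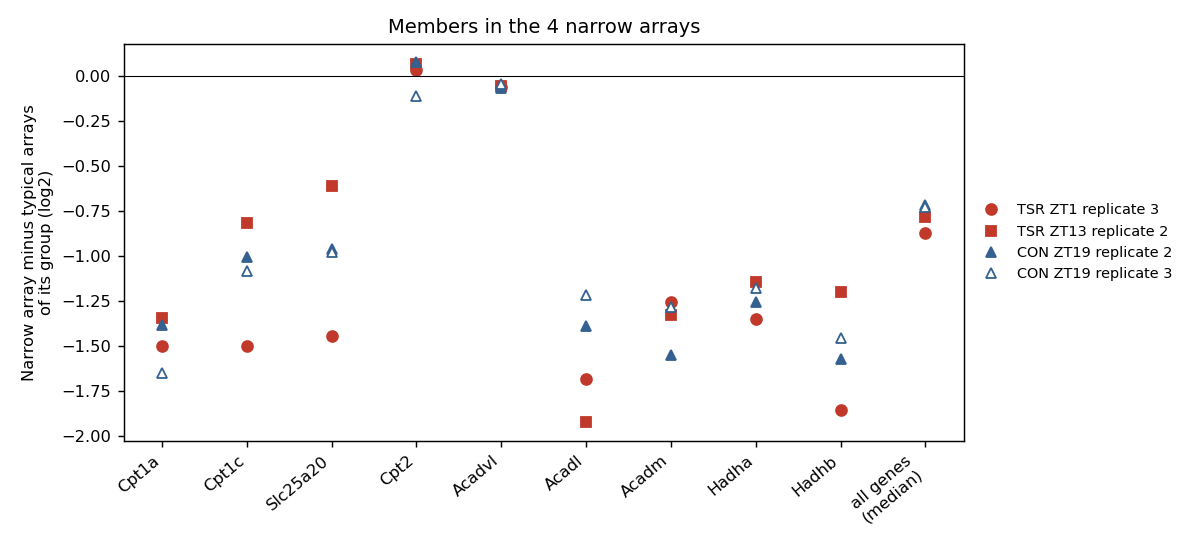
Difference in log2 signal between each of the 4 narrow arrays and the mean of the typical arrays of its group (vertical axis) for the 9 genes and for the median of all genes tested (horizontal axis), 1 symbol per narrow array. Acadvl and Cpt2 sit between -0.11 and 0.077, and the other 7 genes between -1.93 and -0.61.

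Over all 24 arrays the 9 genes passed the test in numbers only at ZT19, the time at which 2 of the 3 CON arrays were narrow. There 6 of the 9 rose in TSR mice (limma, adjusted p under 0.05): Acadm by 1.50 ± 0.38 log2 units (difference ± standard error, 2.83-fold), Acadl by 1.28 ± 0.45, Hadhb by 1.15 ± 0.44, Hadha by 1.14 ± 0.36, Cpt1a by 1.10 ± 0.39 and Slc25a20 by 0.91 ± 0.30. Their adjusted p-values lay between 0.020 for Acadm and 0.036 for Hadhb. At the same time 55.4% of all tested genes passed, 44.2% as higher and 11.2% as lower in TSR, and the median difference of all genes was 0.59, against 1.10 for the 9. With quantile normalization the median of all genes at ZT19 was 0.18. At ZT1, ZT7 and ZT13 none of the 9 passed in limma, where 0.0502%, 0.46% and 0.418% of all genes did. At an unadjusted p under 0.05 the numbers among the 9 were 0, 2 and 2, beside 4.1%, 5.5% and 13.7% of all genes. The average of the differences at the 4 times also called 0 of 9, with 2.41% of all genes called, and 2 of the 9 had an unadjusted p under 0.05, as did 16.1% of all genes.

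Over the 20 typical arrays the picture was of opposite changes in single members. Acadm rose in TSR mice at ZT7, ZT13 and ZT19 and on average, Acadl at ZT13, ZT19 and on average, and Hadha at ZT19 and on average. Cpt1c fell at ZT7, ZT13 and ZT19 and on average, and Acadvl fell at ZT7 and ZT13. Cpt2 and Hadhb rose at ZT7, and Cpt2 also on average. Cpt1a and Slc25a20 passed at none of the 4 times nor on average. In counts, 0 of 9 passed at ZT1, 3 rose and 2 fell at ZT7, 2 rose and 2 fell at ZT13, 3 rose and 1 fell at ZT19, and 4 rose and 1 fell on average. Of all tested genes, 10.1% passed at ZT1, 26.7% at ZT7 (12.9% higher, 13.8% lower), 45.9% at ZT13 (24% higher, 21.9% lower) and 24.6% at ZT19 (17.6% higher, 7.05% lower). On average 56.3% passed, 33.5% as higher and 22.8% as lower. The count of 5 of 9 on average lies near the 56.3% of all genes, and the count of 4 of 9 at ZT13 near its 45.9%. Arrays of both conditions did not overlap for 4, 4, 5 and 7 of the 9 genes at ZT1, ZT7, ZT13 and ZT19, beside 52.4%, 36.1%, 62.4% and 79.6% of all genes. Over 24 arrays these counts were 1, 4, 2 and 5, beside 15%, 36.1%, 27.3% and 56.8%. Medians of the 9 differences over 20 arrays were 0.08, 0.11, 0.10 and 0.20 at ZT1, ZT7, ZT13 and ZT19, against 0.037, 0.0011, -0.0013 and 0.079 for all genes. Each p-value is set by how far mice of a group differed in these arrays, a spread that may in part be technical.

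**Figure D2:**
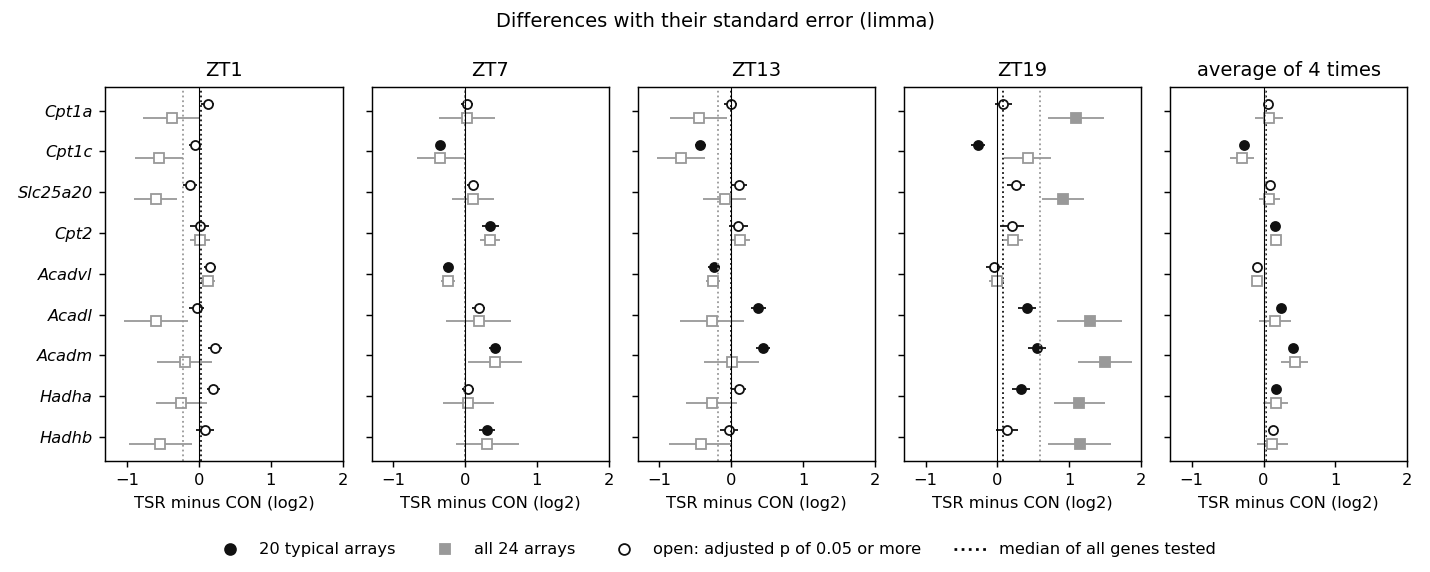
TSR minus CON difference in log2 signal with its standard error (horizontal axis, 1 panel per time and 1 for their average) for each gene, over the 20 typical arrays (circles) and all 24 arrays (squares), filled where the adjusted p was under 0.05; dotted lines mark the median of all genes tested. At ZT19 the squares of 6 genes lie 0.91 to 1.50 right of 0, while over 20 arrays Acadm lies at 0.55 and Cpt1c at -0.28.

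In the carnitine shuttle, Cpt1a (chr19:3322326-3385735) had the smallest average difference of the 9 between conditions in typical arrays. At ZT7 its log2 signal was 7.51, 7.43 and 7.52 in TSR mice, against 7.44, 7.51 and 7.42 in CON mice. At ZT13 the typical arrays read 7.64 and 7.71 in TSR mice, against 7.56, 7.67 and 7.81 in CON mice. These groups overlapped at every time in the typical arrays, with differences of 0.12 at ZT1, 0.027 at ZT7, -0.0033 at ZT13 and 0.08 at ZT19, and 0.06 ± 0.05 on average (adjusted p = 0.31). The rise of 1.10 at ZT19 over 24 arrays came with CON readings of 7.29 in the typical array and 5.91 and 5.64 in the narrow ones, beside 7.48, 7.38 and 7.27 in TSR mice. The lowest TSR value there was below the typical CON value.

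Cpt1c (chr7:44958483-44974880), the endoplasmic reticulum form found in neurons, fell at 3 of the 4 times over the typical arrays. At ZT7 it read 8.42, 8.36 and 8.51 in TSR mice, against 8.88, 8.73 and 8.70 in CON mice, so that every TSR array lay below every CON array. The difference was -0.34 ± 0.07 over 20 arrays (adjusted p = 0.0010). At ZT13 the typical TSR arrays read 8.35 and 8.34 and the narrow one 7.53, against 8.73, 8.75 and 8.85 in CON mice. Again the groups lay apart, and the difference over 20 arrays was -0.43 ± 0.08 (adjusted p = 1.8e-04), or -25.7%. At ZT19 the 3 TSR arrays read 8.47, 8.30 and 8.31, against 8.64 in the typical CON array and 7.63 and 7.55 in the narrow ones. The direction at ZT19 thus turned with the narrow arrays: 0.42 ± 0.33 over 24 arrays (adjusted p = 0.26) and -0.28 ± 0.10 over 20. It also turned with normalization, the difference being -0.29 ± 0.13 over 24 arrays after quantile normalization (limma, adjusted p = 0.064). The call at ZT19 held in 9 of 19 fits that left out 1 further array, while those at ZT7, ZT13 and on average held in all 19. At ZT1 Cpt1c did not pass, with 8.63 and 8.49 in typical TSR arrays and 7.06 in the narrow one, against 8.58, 8.67 and 8.61 in CON mice. The difference there was -0.06 ± 0.08 over 20 arrays (adjusted p = 0.67). On average Cpt1c fell by 0.28 ± 0.04 log2 units over 20 arrays (adjusted p = 1.4e-05). Over 24 arrays the average was -0.29 ± 0.17, almost the same size, with an adjusted p of 0.40. With array weights Cpt1c was not called on average.

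Slc25a20 (chr9:108662136-108684642), the carnitine-acylcarnitine translocase, passed only over 24 arrays and only at ZT19. Its TSR arrays there read 6.97, 6.99 and 6.99, against 6.72 in the typical CON array and 5.76 and 5.74 in the narrow ones. The typical CON array was itself below all 3 TSR arrays, and the difference over 20 arrays was 0.26 ± 0.13 (adjusted p = 0.13). At ZT1 the order was the reverse: 6.94 and 6.97 in typical TSR arrays and 5.51 in the narrow one, against 7.002, 7.17 and 7.06 in CON mice, a difference of -0.12 ± 0.10 over 20 arrays (adjusted p = 0.45). At ZT7 the conditions overlapped, with 6.88 to 7.01 in TSR mice and 6.60 to 6.98 in CON mice, and at ZT13 the typical TSR arrays read 6.91 and 7.11, against 6.89 to 6.91 in CON mice.

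Cpt2 (chr4:107903982-107923589), which re-forms acyl-CoA in the matrix, was raised at ZT7. It read 7.08, 6.96 and 7.29 in TSR mice, against 6.85, 6.90 and 6.54 in CON mice. All 3 TSR arrays lay above all 3 CON arrays, as was the case or its opposite for 36.1% of all genes at ZT7, and the difference was 0.35 ± 0.12 over 20 arrays (adjusted p = 0.034). No array at ZT7 was narrow, so the difference over 24 arrays was the same and only its error and p changed (± 0.14, adjusted p = 0.59). Without TSR ZT7 replicate 1, TSR ZT7 replicate 3 or CON ZT7 replicate 3 the call at ZT7 was lost, with an adjusted p of at most 0.17. At ZT13 all 3 arrays per condition overlapped, with 6.86 to 7.14 in TSR mice and 6.69 to 7.01 in CON mice. On average the difference was 0.17 ± 0.07 (adjusted p = 0.049), and that call held in 8 of 19 fits that each left out 1 further typical array.

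Among the dehydrogenases, Acadm (chr3:153922353-153944643), which encodes the medium-chain enzyme, rose most. At ZT7 it read 8.87, 8.75 and 8.70 in TSR mice, against 8.42, 8.44 and 8.20 in CON mice. At ZT13 the typical TSR arrays read 8.98 and 8.87 and the narrow one 7.60, against 8.33, 8.56 and 8.55 in CON mice. At ZT19 it read 8.83, 8.81 and 8.72 in TSR mice, against 8.23 in the typical CON array and 6.68 and 6.95 in the narrow ones. Every typical TSR array lay above every typical CON array of its time, at ZT1 too, where 8.76 and 8.77 stood against 8.42, 8.49 and 8.73 in CON mice and the narrow TSR array read 7.51. How many of all genes had their arrays apart in 1 direction at all 4 times was not counted. By the weaker measure of group means alone, 38% of all genes kept the same direction at all 4 times. Over 20 arrays the difference was 0.22 ± 0.10 at ZT1 (adjusted p = 0.15), 0.42 ± 0.09 at ZT7 (adjusted p = 0.0012), 0.45 ± 0.10 at ZT13 (adjusted p = 9.2e-04) and 0.55 ± 0.12 at ZT19 (adjusted p = 0.0038). On average Acadm was higher by 0.41 ± 0.05 log2 units, or 32.9% (adjusted p = 1.8e-06), and the calls at ZT7, ZT13, ZT19 and on average held in all 19 fits that left out 1 further array. None of those 19 fits left out the single typical CON array at ZT19, on which the ZT19 difference rests and which enters the average. Over 24 arrays the average was 0.43 ± 0.19, again of the same size, with an adjusted p of 0.26.

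Acadl (chr1:66830839-66863309), the long-chain dehydrogenase, rose at ZT13 and ZT19 over the typical arrays. At ZT13 the typical TSR arrays both read 8.23 and the narrow one 6.30, against 7.69, 7.97 and 7.89 in CON mice. At ZT19 it read 8.12, 8.10 and 7.94 in TSR mice, against 7.64 in the typical CON array and 6.25 and 6.42 in the narrow ones. Typical arrays of both conditions did not overlap at either time, and the differences over 20 arrays were 0.38 ± 0.10 at ZT13 (adjusted p = 0.0050) and 0.41 ± 0.13 at ZT19 (adjusted p = 0.025). With all 24 arrays the difference at ZT13 was -0.26 ± 0.45, of the other sign. The call at ZT19 over 20 arrays was lost without TSR ZT19 replicate 1 or replicate 2 (adjusted p of at most 0.063). At ZT1 and ZT7 the conditions overlapped: 8.09 and 8.07 in typical TSR arrays and 6.40 in the narrow one stood against 7.95, 8.20 and 8.19 in CON mice at ZT1. At ZT7 it read 7.97, 7.93 and 8.02 in TSR mice, against 7.79, 7.95 and 7.61 in CON mice. The average over 20 arrays was 0.24 ± 0.05 (adjusted p = 9.1e-04), and it was called in all 19 fits that left out 1 array.

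Acadvl (chr11:70010183-70015428), the very-long-chain dehydrogenase, moved the other way from Acadm and Acadl at ZT7 and ZT13. It read much the same in narrow and typical arrays. At ZT7 it read 6.83, 6.78 and 6.69 in TSR mice, against 7.03, 6.99 and 6.99 in CON mice. At ZT13 it read 6.85, 6.78 and 6.82 in TSR mice, the second of these in the narrow array, against 6.999, 7.11 and 7.10 in CON mice. All TSR arrays lay below all CON arrays at both times, narrow array included. The differences over 20 arrays were -0.24 ± 0.08 at ZT7 (adjusted p = 0.024) and -0.23 ± 0.08 at ZT13 (adjusted p = 0.028). Over 24 arrays they were -0.24 ± 0.10 and -0.25 ± 0.10, with unadjusted p of 0.028 and 0.020 and adjusted p of 0.71 and 0.27. At ZT1 it read 6.97 and 6.98 in typical TSR arrays and 6.91 in the narrow one, against 6.94, 6.69 and 6.85 in CON mice. At ZT19 the values were 6.75, 6.69 and 6.62 in TSR mice, against 6.73 in the typical CON array and 6.67 and 6.69 in the narrow ones. Neither of these times gave a call, with 0.15 ± 0.08 at ZT1 (adjusted p = 0.25) and -0.05 ± 0.11 at ZT19 (adjusted p = 0.76). The call at ZT7 was lost in 3 of 19 fits that left out 1 further array, and that at ZT13 in 4 of 19, each time on leaving out an array of that time. On average over 20 arrays Acadvl differed by -0.09 ± 0.04 and was not called.

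Of the trifunctional protein, the alpha subunit gene Hadha (chr5:30119423-30154980) rose at ZT19 and on average. At ZT19 it read 8.92, 8.72 and 8.71 in TSR mice, against 8.45 in the typical CON array and 7.19 and 7.28 in the narrow ones. The difference of 0.33 ± 0.12 over 20 arrays had an adjusted p of 0.049 and kept its call in 5 of 19 fits that left out 1 further array. Its average of 0.17 ± 0.05 (adjusted p = 0.0060) was called in all 19. At ZT1 Hadha read 8.85 and 8.86 in typical TSR arrays and 7.50 in the narrow one, against 8.66, 8.70 and 8.59 in CON mice, a difference of 0.20 ± 0.09 over 20 arrays that did not pass (adjusted p = 0.17). The conditions overlapped at ZT7, with 8.63 to 8.82 in TSR mice and 8.60 to 8.80 in CON mice, and at ZT13, with 8.77 and 8.82 in typical TSR arrays and 8.49 to 8.81 in CON mice.

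Hadhb (chr5:30155253-30184593), the beta subunit gene, is transcribed from the same start region, and its call fell at another time. At ZT7 it read 8.98, 8.94 and 8.89 in TSR mice, against 8.66, 8.90 and 8.32 in CON mice. The groups overlapped, and the difference of 0.31 ± 0.11 (adjusted p = 0.044) held in 8 of 19 fits that left out 1 further array. At ZT19 it read 8.82, 8.68 and 8.76 in TSR mice, against 8.62 in the typical CON array and 7.05 and 7.16 in the narrow ones. The difference there was 0.14 ± 0.16 over 20 arrays (adjusted p = 0.53), so the rise of 1.15 over 24 arrays was not called without the narrow arrays. Typical arrays also overlapped at ZT1, with 9.02 and 9.17 in TSR mice and 8.94 to 9.06 in CON mice, and at ZT13, with 8.61 and 8.90 in TSR mice and 8.59 to 8.88 in CON mice. Hadha and Hadhb correlated at r = 0.51 over the 20 typical arrays, as a description.

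**Figure D3:**
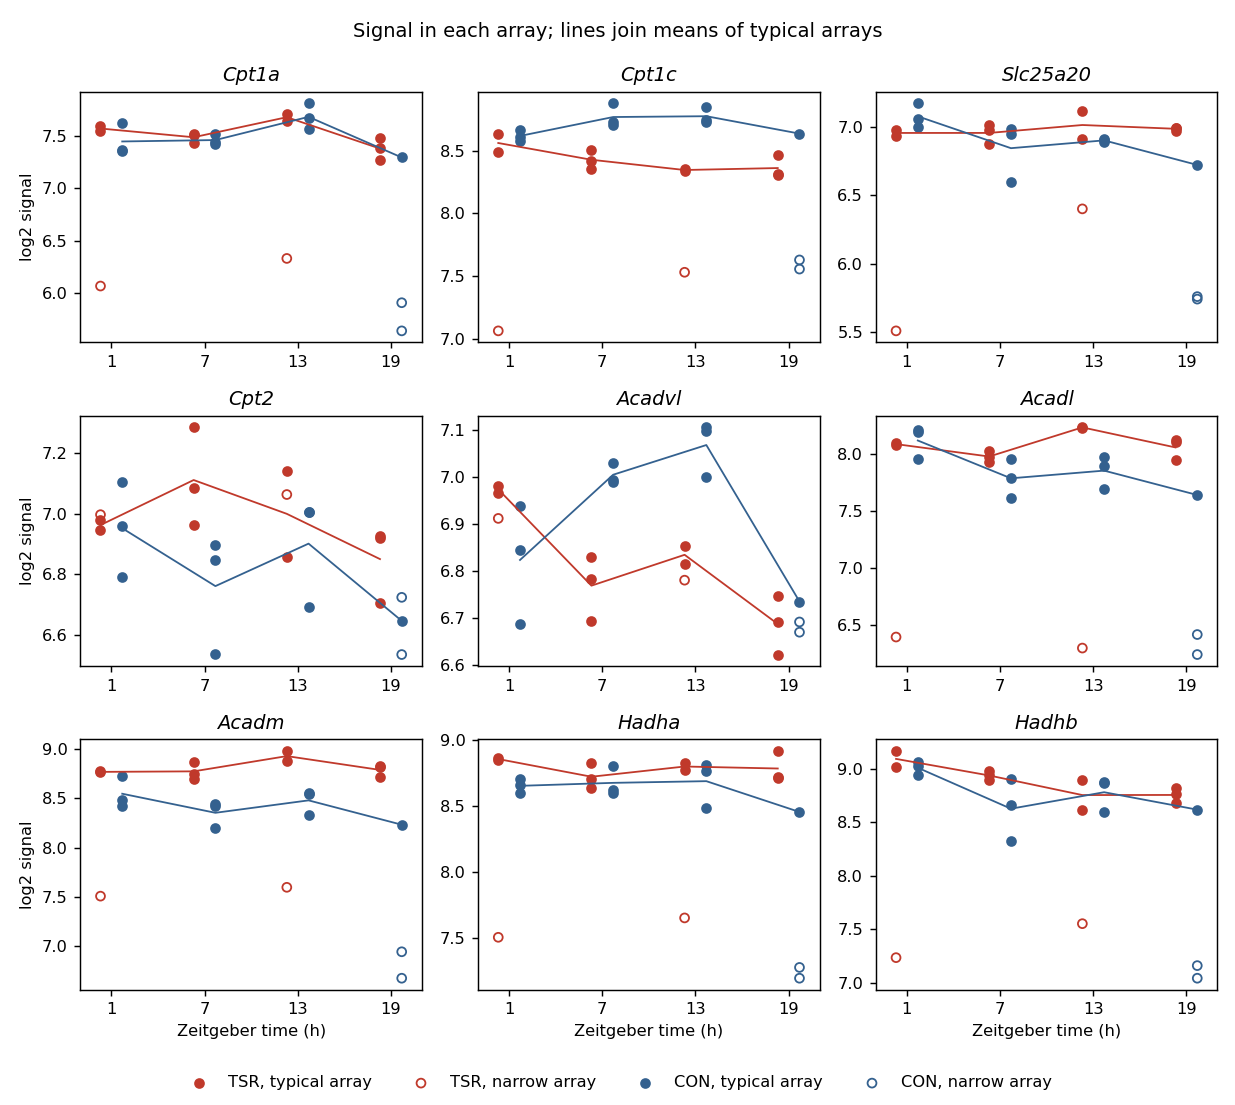
Log2 signal (vertical axes, scaled per gene) at ZT1, ZT7, ZT13 and ZT19 (horizontal axes, hours) in each array, TSR left of CON at each time, with open symbols for the narrow arrays and lines through the means of the typical ones. Typical TSR arrays of Acadm lie above, and those of Cpt1c from ZT7 on below, the typical CON arrays of the same time, while Acadvl has CON means of 7.004 and 7.07 at ZT7 and ZT13 beside TSR means of 6.77 and 6.83.

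Across the 20 typical arrays the 36 pairs of members had Pearson correlations of -0.73 to 0.81, with a median of 0.34. The arrays share the 2 conditions and 4 times, so these values describe the set and carry no test. Acadl and Acadm ran most closely together (0.81), and Acadl also ran with Slc25a20 (0.75). Acadm and Cpt1c were the most opposed pair (-0.73), and Acadvl ran with Cpt1c (0.71). In the same array, the signal of Acadm minus that of Cpt1c was 0.13 to 0.63 log2 units in 10 typical TSR arrays (median 0.40), against -0.51 to 0.12 in 10 typical CON arrays (median -0.29). Over all arrays it was 0.07 to 0.63 in 12 TSR arrays, against -0.95 to 0.12 in 12 CON arrays. This pair was chosen after its values were seen, and the difference of 2 probe sets has no true 0, so only its shift between conditions can be read. Its ranges in TSR and CON arrays overlapped over all arrays, and over the typical ones the lowest TSR value lay just above the highest CON value.

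The genes whose signal over the 20 typical arrays was most like that of 4 members were sought among all tested genes. For Acadm they were Rhot1 (r = 0.95), Krt222 (0.94) and Usp25 (0.94). For Cpt1c they were Fbrsl1 (0.96), Rnpepl1 (0.96) and Bmyc (0.95). For Acadl they were Ghitm (0.92), Hsd17b4 (0.92) and Commd6 (0.91), of which Hsd17b4 encodes the bifunctional enzyme of peroxisomal fatty acid oxidation. For Acadvl they were Bak1 (0.92), Trappc2l (0.89) and Rpl28 (0.87). They are the 3 highest of 11962 correlations for each member, and the top values of so many are high in any set of arrays that differ between groups.

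Daily variation was tested as a 24-h rhythm on ZT1 against ZT13 and ZT7 against ZT19. Over 24 arrays 0 of 9 genes passed in TSR, 0 in CON and 0 in the difference between conditions (limma F tests), beside 0.092%, 0.109% and 0.259% of all genes. At an unadjusted p under 0.05 the numbers were 0 in TSR, 5 in CON and 1 in the difference, beside 2.37%, 31.6% and 11.7% of all genes, with 2 of the 3 CON arrays at ZT19 narrow. Over 20 arrays none passed in TSR (21.5% of all genes did, and 2 of the 9, against 37% of all genes, had an unadjusted p under 0.05), and Acadvl passed in CON (adjusted p = 0.016, with 21.4% of all genes passing). Acadvl in CON mice peaked at about ZT 9.8 with a mean-to-peak amplitude of 0.18 log2 units, against a fitted peak at ZT 3.0 and an amplitude of 0.08 in TSR mice (adjusted p = 0.33). That rhythm was called in 18 of 19 fits that left out 1 further array, and not without CON ZT1 replicate 2 (adjusted p = 0.054). The difference in rhythm between conditions passed for Acadvl (adjusted p = 0.032) and Cpt1c (adjusted p = 0.037), with 28.9% of all genes passing. Each of these calls held in 12 of 19 fits that left out 1 further array, and all of them rest on the single typical CON array at ZT19.

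The neighbouring genes of the pathway were taken from a list of 45, of which 37 had a probe set with 1 symbol and 33 were tested. Over 24 arrays 18 of them rose and 3 fell in TSR mice at ZT19, beside 44.2% and 11.2% of all genes, and 0 passed at the other times or on average. Those that rose most were Abcd2 (1.68), Acadsb (1.6025), Acsl4 (1.44) and Hadh (1.305). Acsl6 (1.05), Acox3 (0.90) and Acad9 (0.80) also rose, and like Acadsb and Hadh did not pass at ZT19 over 20 arrays (0.031 to 0.32). The 3 that fell were Angptl4 (-0.91), a secreted inhibitor of lipoprotein lipase, Ppard (-0.54), a nuclear receptor for fatty acids, and Esrra (-0.40), the estrogen-related receptor alpha. At ZT19 over 20 arrays Angptl4 passed (-0.81, adjusted p = 0.017), and Ppard (-0.16, adjusted p = 0.32) and Esrra (-0.12, adjusted p = 0.51) did not. Over 20 arrays the numbers that rose and fell were 4 and 0 at ZT1, 5 and 1 at ZT7, 11 and 3 at ZT13, 11 and 1 at ZT19, and 16 and 4 on average. Of all tested genes, 10.1% passed at ZT1 in either direction. At ZT7 12.9% rose and 13.8% fell, at ZT13 24% and 21.9%, and at ZT19 17.6% and 7.05%. On average 33.5% of all genes rose and 22.8% fell, and the median difference of the 33 was 0.13, against 0.028 for all genes.

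By role, activation and carnitine handling had 4 of 6 tested genes higher and 1 lower on average over 20 arrays. Beside this and each count by role below, 33.5% of all genes were higher and 22.8% lower. Acsl4 and Acsl5, which join fatty acids to CoA, were higher by 0.39 and 0.36, Crot, the carnitine octanoyltransferase, by 0.39 and Slc22a5, the carnitine transporter of the cell membrane, by 0.29, and Crat, the carnitine acetyltransferase, was lower (-0.22). Of 4 tested genes listed as peroxisomal 3 were higher: Abcd2 by 0.64 ± 0.05 and Abcd3 by 0.27, both importers of fatty acyl-CoA, and Hsd17b4 by 0.18. Abcd2 had the largest difference of the 33, and it rose at ZT7 (0.72), ZT13 (1.05) and ZT19 (0.74). Etfb and Etfdh, which pass electrons from the dehydrogenases to the respiratory chain, were higher by 0.19 and 0.18. Of 11 further oxidation enzymes 4 were higher, among them Decr1 by 0.35 and Eci2 by 0.29, which act on unsaturated chains. Only Acaa1a among the 11 was lower (-0.20, adjusted p = 0.0064). It encodes a thiolase of the peroxisome and is named here after its values were seen. Among 8 tested regulators and ketogenic genes 2 were higher and 2 lower. Ppargc1a, the coactivator of mitochondrial genes, was higher by 0.40 ± 0.05, most at ZT7 (0.69 ± 0.08), whereas Ppard (-0.20) and Angptl4 (-0.36) were lower. Acaca, which makes malonyl-CoA, was higher by 0.20. Ppara, Ehhadh, Acacb and Mlycd lay below the signal limit and were not tested.

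**Figure D4:**
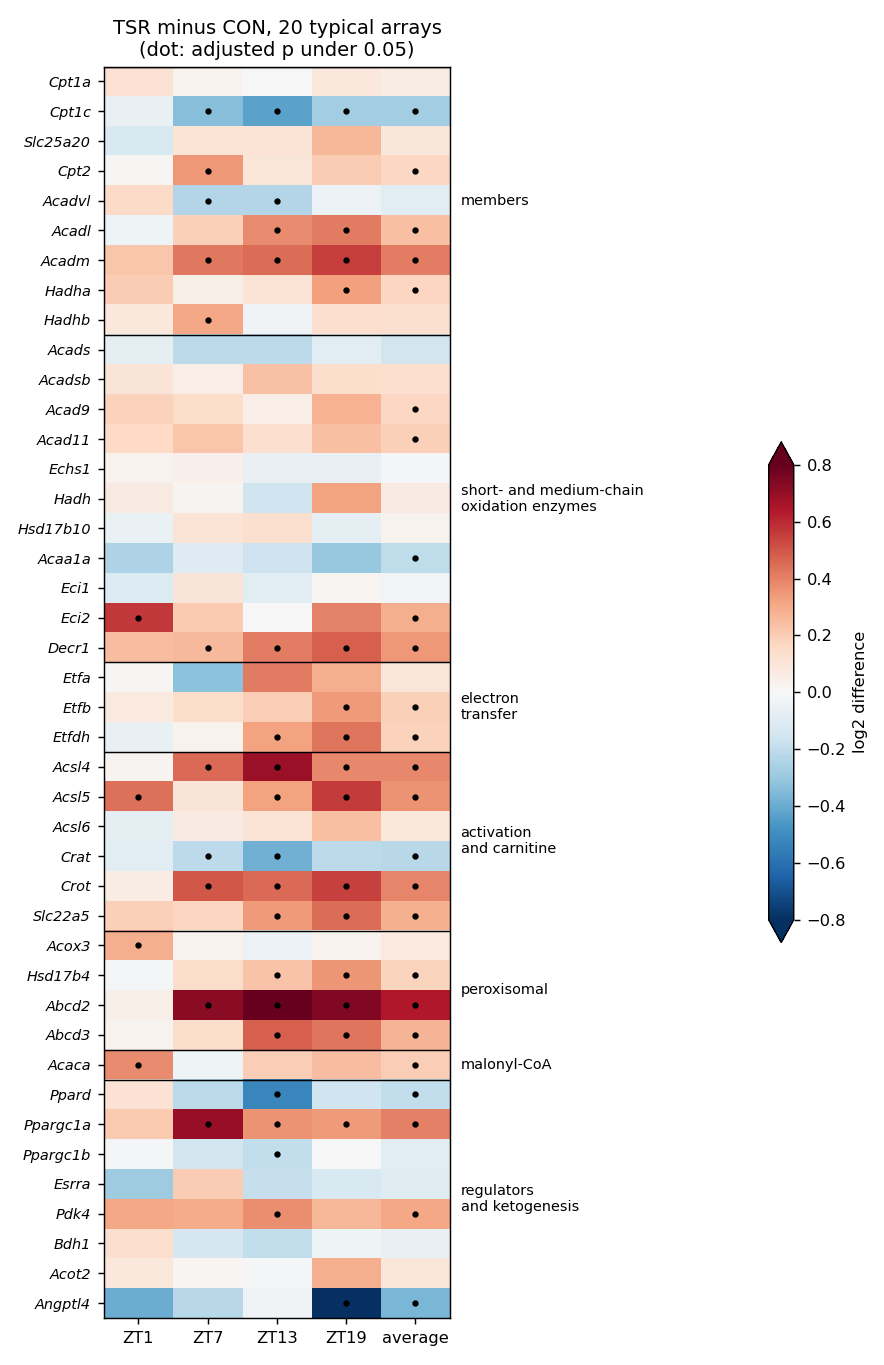
TSR minus CON difference in log2 signal (colour) over the 20 typical arrays for the 9 members and 33 other genes of the pathway (rows) at each time and on average (columns), with a dot where the adjusted p was under 0.05. Acadm, Abcd2, Crot and Ppargc1a are higher with a dot at ZT7, ZT13 and ZT19, and Cpt1c is lower.

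The tissue label was set beside marker genes, since the amount of each cell type in a dissected block can differ between mice. In bulk tissue, fewer cells of a type and less RNA per cell cannot be told apart. Levels below are means per array over all markers of a list that were read, those under the signal limit included, whereas counts are of tested markers. Counts are for the average of the 4 times over the 20 typical arrays, unless a time is named. Beside them, 33.5% of all tested genes were higher on average and 22.8% lower, and 10.1% passed at ZT1 in either direction. Of the arcuate and ventromedial markers Npy, Cartpt, Tac2 and Fezf1 were above the signal limit, and Pomc and Nr5a1 (5.75 and 5.73 log2 units) were below it, while Agrp was not read. Over the 20 typical arrays the 4 tested markers all fell on average, and the mean of the 6 read was 6.44 to 6.74 in TSR mice, against 6.73 to 7.07 in CON mice. Suprachiasmatic markers fell in 5 of 6 cases and rose in none, with the mean of 7 read at 7.27 to 7.98 in TSR mice, against 7.59 to 8.14 in CON mice. Markers of thalamus and cortex, regions outside the hypothalamus, rose in 5 of 5 cases, with the mean of 6 read at 6.05 to 6.77 in TSR mice, against 5.61 to 6.22 in CON mice. Those of forebrain cholinergic neurons rose in 3 of 3 cases, with the mean of 4 read at 6.53 to 7.98 in TSR mice, against 5.54 to 7.60 in CON mice. Averaged over the 4 times, these marker lists therefore differed between conditions, but they did not do so in the same direction at every time. Whether the tissue taken or the level of these genes within it differed cannot be told apart here. The median difference of the thalamus and cortex markers was -0.13 at ZT1 (0.037 for all genes). That of the suprachiasmatic markers was 0.23 at ZT19 (0.079 for all genes). The cholinergic mean also changed with time within CON mice, from 7.48 at ZT1 to 5.69 at ZT7. The part of these regions in the differences of Acadm, Acadl, Cpt1c and the other members was not tested. General neuronal markers were higher in 2 and lower in 2 of 7 cases (10.3 to 10.6 in TSR mice, against 10.3 to 10.7 in CON mice), and astrocytic markers likewise in 2 and 2 of 7 (9.95 to 10.3 in TSR mice, against 9.79 to 10.1 in CON mice). Oligodendrocyte markers rose in 4 of 6 cases on average and in 5 of 6 at ZT1, at 8.52 to 9.69 in TSR mice, against 8.47 to 9.21 in CON mice. Of 5 tested tanycyte and ependymal markers Vim was higher (0.17) and Foxj1 (-0.33), Ccdc153 (-0.32) and Col25a1 (-0.25) were lower, and the mean of the 7 read was 6.23 to 6.58 in TSR mice, against 6.30 to 6.67 in CON mice. Endothelial and mural markers were higher in 3 and lower in 1 of 6 cases (mean of 7 read 6.58 to 6.93 in TSR mice, against 6.37 to 6.74 in CON mice). Microglial markers were higher in none and lower in 1 of 4 (mean of 6 read 6.51 to 6.77 in TSR mice, against 6.50 to 6.81 in CON mice).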

How the data were processed

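The authors deposited log2 signals of 35556 probe sets for each of 24 arrays. Affymetrix Expression Console is named in the submitters' processing notes, without a version, and the summarization and normalization method was not stated there. The condition was taken from each array's description, and time and replicate number from its title. Misplaced decimal points were found in the deposited values: 2746 of 853344 cells (0.322%) were moved back by factors of 10 and 61 were set to missing, 9 were missing as deposited, and 0 moved cells belonged to the 9 genes. On simulated shifts this step recovered 2125 of 2125 cells, which checks the code only. Probe sets with 1 symbol in the array's annotation numbered 21789, 1621 had several and 12146 none, and those of several or none were not used. For each gene the probe set of highest mean was kept, and 11963 of 19938 genes lay at or above the 40th percentile.

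Group means of the 8 groups were fitted with limma 3.58.1 in R 4.3.3, with empirical Bayes moderation and a trend on the mean level. Tests were 2-sided, and p-values were adjusted by Benjamini and Hochberg over all tested genes, with 0.05 as the threshold. Simulations over 11930 genes used independent normal noise and changes in the TSR group at ZT7 alone, a time without narrow arrays. The noise of a gene had the same SD in every array, and with 24 arrays that SD took in the narrow arrays. Shifts shared by many genes, as in the real narrow arrays, were not simulated, so the recovery does not measure that of the real data. With 24 arrays 28 of 100 changes of 1 log2 unit and 5 of 100 of 0.5 were recovered, and 99 and 88 of 100 with 20. Unchanged genes called numbered 3 with 24 arrays and 11 with 20. Recovery at the other times was not simulated. The members and lists were chosen with earlier results of these data known. All 9 members were named. Other pathway genes were named if they passed over 24 arrays or were among the largest that passed over 20, and like genes for at most 4 members. Marker genes came from lists per cell type and region. Replicate numbers did not pair the mice: the 12 pairs of the same number and time had a median correlation of 0.04 (-0.43 to 0.40), 5 of them over 0.1. Sequences are RefSeq's, and all 9 genes matched the table. Alternatives covered the filter, normalization, narrow arrays, moderation, array weights, probe sets, moved decimals, a replicate block, fits to 1 time and each array left out. Leaving out a further array beside the narrow ones was chosen after seeing the data, and the only typical CON array at ZT19 was never the one left out.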

Additional observations from a re-analysis of the deposited data

Results flagged for a closer look

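The change over the day differed between TSR and CON mice for Acadvl (adjusted p = 0.0319, limma F test over the 20 typical arrays) and for Cpt1c (adjusted p = 0.0374). Both tests read the CON group at ZT19 from 1 array.

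Acadvl lay on opposite sides at different times over the typical arrays. All typical TSR arrays were above all CON arrays at ZT1 (difference 0.15) and below them at ZT7 (-0.236) and ZT13 (-0.234). Typical arrays lay apart, in either direction, for 52.4%, 36.1% and 62.4% of all genes at these times. At ZT1 the difference was not called, and the narrow TSR array (6.91) lay within the range of the CON arrays. The difference in rhythm of Acadvl, above, is the test that bears on these opposite sides.

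Slc25a20 also had its groups apart in opposite directions. Over 24 arrays TSR was below CON at ZT1 (-0.603) and above it at ZT19 (0.911), with a narrow TSR array at ZT1 and 2 narrow CON arrays at ZT19. Groups lay apart in either direction for 15% of all genes at ZT1 and 56.8% at ZT19 over 24 arrays. Over the typical arrays Slc25a20 was below at ZT1 (-0.121) and above at ZT13 (0.112), beside 52.4% and 62.4% of all genes with groups apart. The difference between those times was not tested by itself, and the test of its rhythm did not pass (adjusted p = 0.30 over 20 arrays). Groups of 3 arrays were too small for a test of single outlying arrays.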

How the results depend on the processing

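The counts of the 9 genes called depended on how the narrow arrays were treated and on array weights. At ZT7 the 0 called over 24 arrays became 5 without the narrow arrays, 6 with quantile normalization as well, 2 with narrowness as a covariate, 5 with array weights and 2 from the 6 arrays of that time alone. At ZT13 the 0 became 4, 4, 3 and 5 under the same first 4 settings. At ZT1 array weights gave 3, and at ZT19 they gave 7. At ZT19 the 6 became 2 with the covariate, 3 without the narrow arrays and with quantile normalization, and 0 from the 6 arrays of that time alone (limma; 6 had an unadjusted p under 0.05 over 24 arrays). On average the 0 became 2 with quantile normalization, 5 without the narrow arrays, 5 with the covariate, 5 without the narrow arrays and with quantile normalization, and 7 with array weights. For a rhythm in CON the 0 became 1, 1, 2 and 8 without the narrow arrays, with the covariate, without them and quantile normalized, and with array weights. For a rhythm in TSR it became 1 in the third and 6 in the last of these. For the difference in rhythm it became 2 without the narrow arrays, 3 with quantile normalization as well and 8 with array weights. The replicate block gave 6 at ZT19 and 0 elsewhere, so it changed no count, and the same held without the filter and without a trend. The genes behind the counts changed too. At ZT19 without the narrow arrays Hadhb, Cpt1a and Slc25a20 were no longer among those called, and Cpt1c was, as lower in TSR mice (-0.28). On average, Cpt1c was called with quantile normalization and with the covariate, but was not among the 7 called with array weights.

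With 1 array left out, with or without the narrow arrays, counts ranged from 0 to 6 at ZT7, 0 to 4 at ZT13, 0 to 7 at ZT19, 0 to 6 on average, 0 to 8 for the CON rhythm, 0 to 1 for the TSR rhythm and 0 to 3 for the difference in rhythm. Over 24 arrays the ZT19 count was 0 without TSR ZT19 replicate 1 or 2 or without CON ZT19 replicate 2 or 3, and 2 without TSR ZT19 replicate 3. The CON rhythm count was 8 and the difference in rhythm 2 without CON ZT19 replicate 1, and the average was 1 without that array or TSR ZT13 replicate 2.

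Signs turned for 5 differences that passed in at least 1 setting. Acadm and Hadha at ZT1 were 0.19 and 0.21 with array weights. Acadl at ZT13 was 0.38 without the narrow arrays, 0.34 with quantile normalization as well and 0.33 with array weights, and -0.59 to 0.44 with 1 array left out. Cpt1a at ZT19 was -0.025 without the narrow arrays and quantile normalized. Cpt1c at ZT19 was -0.28 without the narrow arrays, -0.39 with quantile normalization as well, and -0.33 to 0.77 with 1 array left out. With quantile normalization alone, over 24 arrays, it was -0.29. Without CON ZT19 replicate 1, which leaves only narrow CON arrays there, Cpt1c passed as higher in TSR mice (0.77). It was also called at ZT19 with array weights over 24 arrays. Without the narrow arrays, differences that passed neither with nor without them also changed sign: Acadm (0.22), Hadha (0.20), Hadhb (0.083) and Cpt1a (0.12) at ZT1, and Hadha (0.11) and Slc25a20 (0.11) at ZT13. Beyond the narrow arrays, the cause was not tested.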
